A study of Mus musculus with 73 samples.

Results

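Wells of the jejunum single-cell RNA sequencing data that had been sorted through an EPCAM PDGFRa doublet gate were compared with wells sorted as PDGFRa singlets from the same mouse in the same sorting session. Members were chosen by plate label and by content: every well of these plates with 400 to 8000 unique molecular identifiers (UMIs, each standing for a captured mRNA molecule) and at least 250 detected genes. This gave 594 wells of the 2347 that pass the same limits in the whole series, 441 from the doublet gate and 153 from the singlets. The mouse was a C57BL/6 male of 3 months on regular chow, and both gates share this animal and the library method (MARS-seq, in which sorted cells are lysed and barcoded in plates of wells). The rule covers 7 plates, of which 5 held such wells: doublet plates 1, 3 and 5 and singlet plates 2 and 3. Singlet plate 1 had no wells in the table used here, and no well of singlet plate 4 reached the limits. Plates are the units of every test, and since all come from a single mouse, a p-value here measures only the spread between plates.

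EPCAM is an adhesion protein of the lateral membrane of intestinal epithelial cells, and PDGFRa is a receptor tyrosine kinase that marks fibroblast-like stromal cells, including telocytes, whose long thin extensions lie just beneath the epithelium. Telocytes secrete BMP and Wnt pathway ligands and inhibitors to the epithelial cells they touch. A gate for events positive for both proteins is a way to collect an epithelial cell still attached to a stromal cell, so that the RNA of both partners would be captured in a single well. How this gate was drawn is not given in the sources used here. The study's methods describe a sort for CD45-negative, EPCAM-negative, PDGFRa-positive cells.

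The depth of the 5 plates differed. Total UMIs were 53547, 680957 and 388148 on doublet plates 1, 3 and 5 and 371744 and 140917 on singlet plates 2 and 3. Of 362, 384 and 384 wells in the table for the doublet plates, 26, 304 and 111 were kept (7.18%, 79.2% and 28.9%), and of 384 and 381 wells for the singlet plates, 115 and 38 were kept (29.9% and 9.97%). The median kept well held 948, 1680.5 and 2121 UMIs on the doublet plates and 1974 and 1651.5 on the singlet plates. Doublet plate 1 was the shallowest, and doublet plate 3 supplied most wells of its gate. The gates overlapped in median UMIs (mean 1583 ± 593 for 3 doublet plates and 1813 ± 228 for 2 singlet plates, SD; exact permutation test over plates, two-sided p = 0.9) and in median genes per well (623 ± 240 and 811 ± 175; exact permutation p = 0.5). The share of wells kept overlapped too (38.4 ± 36.9% and 19.96 ± 14.1%; exact permutation p = 0.9). Without doublet plate 1 the 2 remaining doublet plates had medians of 1901 ± 311 UMIs (exact permutation p = 0.667) and 757 ± 86.6 genes (exact permutation p = 1), with 54.0 ± 35.5% of wells kept (exact permutation p = 0.667). Mitochondrial transcripts took 0.881%, 6.75% and 7.31% of UMIs on the doublet plates and 4.43% and 3.68% on the singlet plates (exact permutation p = 0.9, and 0.333 without doublet plate 1). With 3 plates against 2, the smallest p this test can give is 0.1, and without doublet plate 1 it is 0.333, so no share or median could pass 0.05. Over the 8 measures tested this way every Benjamini-Hochberg adjusted p was 0.9.

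On several plates the classes of wells differed from what the gate label names. On doublet plate 1, none of the 26 wells was classed as epithelial-like, so that plate is an exception within its gate and results are given with and without it. Conversely, epithelial-like wells made up 80.0% and 65.8% of the kept wells on the PDGFRa singlet plates 2 and 3. The paper also reports mostly epithelial and immune cells after its PDGFRa enrichment. It proposes that pieces of PDGFRa+ telocyte extensions stuck to them, which was not tested here. Well barcodes recur between plates by design: 361 barcodes occur on all 5 plates, and 439 of the 594 wells carry a barcode that was also kept on another of them.

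Transcripts of the sorted proteins were checked first. Epcam (chromosome 17, 87635979 to 87651129, GRCm38) had 4, 789 and 251 UMIs on doublet plates 1, 3 and 5, in 1, 220 and 65 wells, and 243 and 69 UMIs on singlet plates 2 and 3, in 66 and 21 wells. Scaled to 1000000 UMIs per plate (CPM), its levels were 150, 1289 and 959 in the doublet gate and 842 and 766 in the PDGFRa singlets, so the ranges overlapped. Pdgfra (chromosome 5, 75152292 to 75198215) had 14, 2 and 26 UMIs on the doublet plates and 19 and 4 on the singlet plates, or 525, 3.27 and 99.3 CPM against 65.8 and 44.4 CPM. The log2 fold change, doublet minus singlet, was 0.12 (SE 0.97) for Epcam and 1.11 (SE 1.06) for Pdgfra, with edgeR unadjusted p of 0.900 and 0.298. Without doublet plate 1 these became 0.62 and -0.25. Ptprc, which encodes the immune marker CD45, had 0 UMIs on all 5 plates. Epcam and Pdgfra UMIs met in 1 of 441 doublet-gate wells and in 0 of 153 singlet wells.

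Because a single gene is often missed at this depth, 11 epithelial genes (Epcam, the keratins Krt8, Krt18, Krt19 and Krt20, villin Vil1, the junction genes Cdh1 and Cldn7, Lgals4, Elf3 and Phgr1) and 12 mesenchymal genes (Pdgfra, the matrix genes Dcn, Lum, Col1a1, Col1a2, Col3a1, Col6a1, Col6a2, Mgp, Bgn and Fn1, and Fstl1) were summed per well. At least 2 UMIs of both lists were found in 5 of 26, 0 of 304 and 8 of 111 wells on doublet plates 1, 3 and 5, and in 2 of 115 and 0 of 38 wells on singlet plates 2 and 3. The pooled share was 2.95% in the doublet gate (13 of 441; exact Clopper-Pearson 95% interval 1.58 to 4.99%) and 1.31% in the singlets (2 of 153; 0.159 to 4.64%). Without doublet plate 1 it was 1.93% (8 of 415; 0.836 to 3.76%). These intervals cover counting error only. Per plate, the share was 8.81 ± 9.72% in the doublet gate (SD, n = 3) and 0.870 ± 1.23% in the singlets (n = 2), a difference of 7.94 percentage points (exact permutation p = 0.5), or 2.73 points without doublet plate 1 (exact permutation p = 1). Doublet plate 3, with most wells and most UMIs in total, held no such well, and the gates were not told apart by this measure.

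In the wells that held both lists, the lists were unequal. Over all 355 epithelial-like wells of the doublet gate, median UMIs were 26 for the epithelial list and 0 for the mesenchymal list. Over all 58 mesenchymal-like wells they were 0 and 26. Classes were named from these same lists, so that split is in part fixed by the naming. Among the 13 doublet-gate wells with both, the lesser list never exceeded 4 UMIs. The widest gaps were 2 epithelial against 77 mesenchymal UMIs in a well of plate 1 and 103 epithelial against 2 mesenchymal UMIs in a well of plate 5. The most even wells were shallow: 4 epithelial against 10 mesenchymal UMIs on plate 1 (591 UMIs in all) and 4 against 16 on plate 5 (643 UMIs). At a minimum of 5 UMIs of each list, 0 of 441 doublet-gate wells qualified, which allows a share of up to 0.680%, and 0 of 153 singlet wells, which allows up to 1.96%. The wells with both lists on doublet plate 5 ranged from 643 to 4114 UMIs. With every well thinned to 400 UMIs, the expected share with both lists was 7.29%, 0% and 1.11% on the doublet plates and 0.721% and 0% on the singlet plates.

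Stray RNA was not measured, and the origin of mesenchymal UMIs in epithelial-like wells was not tested. The share of epithelial-like wells with any mesenchymal UMI was counted for each gate. It was 3.66% in the doublet gate (13 of 355 wells, median 1931 UMIs) and 11.1% in the singlets (13 of 117, median 2520 UMIs), but the plates overlapped, with 1.81% and 10.1% on doublet plates 3 and 5 and 13.0% and 4.00% on singlet plates 2 and 3. Further gates give the share with both lists a scale. Of 62 wells sorted as EPCAM singlets in a later session, 3 held both lists (4.84%; 1.01 to 13.5%). Of 545 wells sorted as PDGFRa singlets in that later session, 9 did (1.65%; 0.758 to 3.11%). On a plate of the main session, 4 of 126 wells of an NT5E doublet gate did (3.17%; 0.872 to 7.93%). The 2.95% of the EPCAM PDGFRa doublet gate lies inside each of these intervals. At a minimum of 5 UMIs of each list the same 3 of 62 EPCAM singlets qualified (1.01 to 13.5%), and 0 of 441 wells in the doublet gate did (0 to 0.833%). All of these intervals cover counting error over wells only. The EPCAM singlets came from a single plate of another mouse, so a difference between these gates could not be tested. At that minimum 3 of 545 PDGFRa singlets of the later session qualified (0.114 to 1.60%), and 0 of 126 wells of the NT5E doublet gate did (0 to 2.89%).

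**Figure D1:**
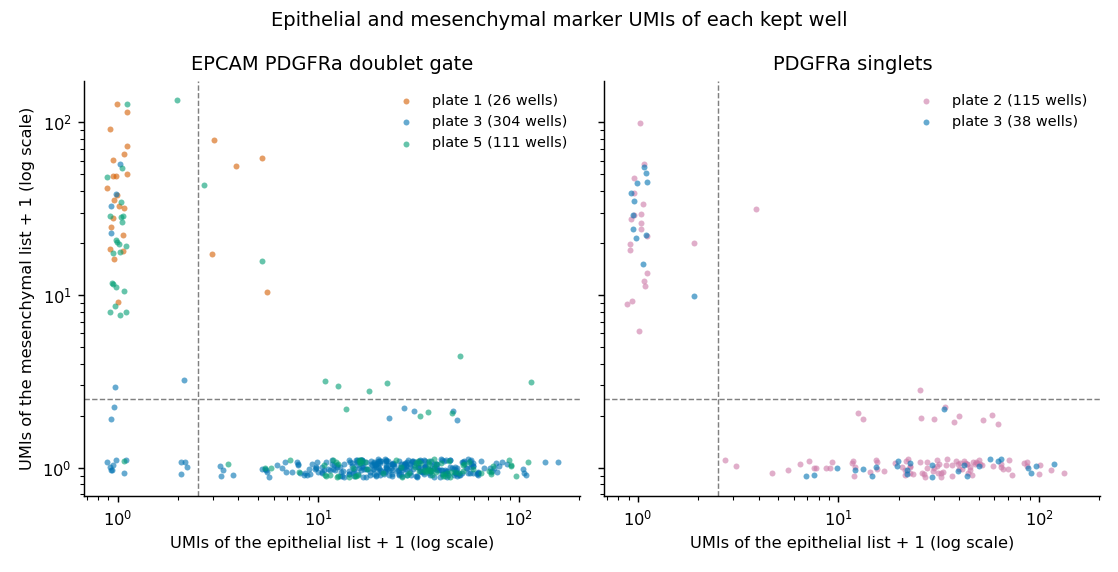
Each point is a kept well, with its epithelial-list UMIs + 1 on the horizontal axis and its mesenchymal-list UMIs + 1 on the vertical axis (both log scales, with a small random shift so that equal counts can be seen). Colours mark plates, and dashed lines separate 1 UMI from 2 UMIs: 13 of 441 doublet-gate wells and 2 of 153 singlet wells lie to the upper right of both lines, and most wells lie along an axis in both gates.

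Clusters of all kept wells of the series were named from these marker lists, and each well took the class of its cluster. Epithelial-like wells numbered 0, 276 and 79 on doublet plates 1, 3 and 5 (0%, 90.8% and 71.2%) and 92 and 25 on singlet plates 2 and 3. Mesenchymal-like wells numbered 26, 6 and 26 on the doublet plates (100%, 1.97% and 23.4%) and 20 and 12 on the singlet plates (17.4% and 31.6%). A cluster led by mitochondrial transcripts stayed unnamed and held 22 and 6 wells of doublet plates 3 and 5 and 3 and 1 wells of the singlet plates. No well of either gate was immune-like. The widest contrast was within the doublet gate: plate 1 was all mesenchymal-like and plate 3 nearly all epithelial-like. The mean share of mesenchymal-like wells was 41.8 ± 51.5% in the doublet gate and 24.5 ± 10.0% in the singlets (exact permutation p = 0.9). Without doublet plate 1 the doublet mean was 12.7 ± 15.2%, below the singlets instead of above them (exact permutation p = 0.667). For epithelial-like wells the means were 54.0 ± 47.8% and 72.9 ± 10.0% (exact permutation p = 0.9), and 81.0 ± 13.9% without doublet plate 1 (exact permutation p = 0.667).

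**Figure D2:**
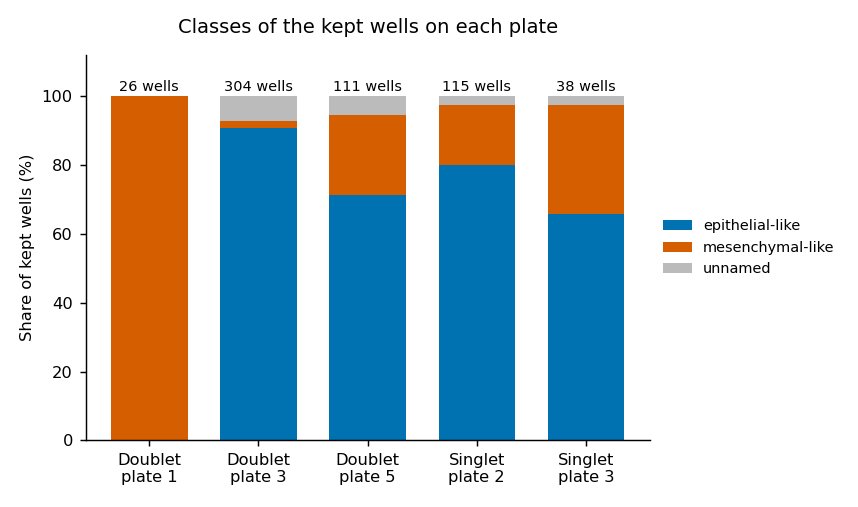
Bars show the share of kept wells (%) on each plate that were epithelial-like, mesenchymal-like or unnamed, with the number of kept wells above each bar. Doublet plate 1 is 100% mesenchymal-like, while the other 4 plates are 65.8% to 90.8% epithelial-like.

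Wells just inside and just outside the lower limit on UMIs were compared by their list levels, whatever their number of genes. Wells with 400 to 8000 UMIs but under 250 genes, which were not kept, numbered 44 in the doublet gate and 32 in the singlets. Doublet-gate wells with 400 UMIs or more but under 500 (18 wells) carried 7963 CPM of the epithelial and 5880 CPM of the mesenchymal list, and those with 300 or more but under 400 (37 wells) carried 6845 and 3615 CPM. In the singlets the same bands held 22 and 26 wells, with 2980 and 3679 CPM epithelial and 8528 and 2489 CPM mesenchymal. Wells above 8000 UMIs numbered 12 in the doublet gate and 5 in the singlets, and 0 of them held 2 UMIs of both lists.

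To ask which genes separate the gates, UMIs of all kept wells were summed per plate and fitted with edgeR's quasi-likelihood test. In such sums, fewer wells of a cell type and less RNA per well cannot be told apart. Of 6638 genes tested, 0 passed an adjusted p of 0.05 (0%), 100 had an unadjusted p under 0.05 (1.51%), and DESeq2 also called 0, with 75 under an unadjusted p of 0.05. Plates did not overlap between gates for 1067 of the 6638 genes (16.1%). The epithelial list summed to 562, 13793 and 11165 CPM on doublet plates 1, 3 and 5 and 11676 and 11047 on singlet plates 2 and 3. The mesenchymal list summed to 44383, 265 and 2835 CPM against 1943 and 4175. Which gate had the higher mesenchymal values turned on doublet plate 1: 11 of 12 genes of that list had a higher fitted value in the doublet gate with it (median log2 fold change 1.30, against -0.06 over all genes) and 1 of 12 without it (median -0.71, against 0.05). For the epithelial list, 2 of 11 genes had a higher value with plate 1 and 9 of 11 without it.

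The genes with the smallest p-values were led by alpha-defensins, antimicrobial peptides that Paneth cells secrete at the crypt base. Defa17 (chromosome 8, 21655780 to 21656735) had 5, 29 and 352 UMIs on doublet plates 1, 3 and 5 and 5 and 0 on singlet plates 2 and 3. Its log2 fold change was 5.51 (SE 1.29; edgeR adjusted p = 0.0709). Defa23 (chromosome 8, 21055047 to 21056016) had 2, 11 and 105 UMIs against 0 and 0, at least 16.5-fold higher in the pooled doublet gate when the singlets are set at a floor of 3 counts over the gate (edgeR adjusted p = 0.0709). Defa24 had 4, 10 and 191 UMIs against 6 and 1, with a log2 fold change of 4.08 (SE 1.24), and the gene model Gm15284 had 1, 9 and 235 against 13 and 1, with 3.41 (SE 1.16). Defensin genes are near-identical copies, so how reads were divided among them is uncertain. On doublet plate 5 a single well supplied 325 of the 352 Defa17 UMIs and 94 of the 105 Defa23 UMIs. Without the well richest in Paneth UMIs on each plate, Defa17 had a log2 fold change of 2.46 and the smallest edgeR adjusted p over all genes was 1.00. Without doublet plate 5 the Defa17 value was 2.83, and without doublet plate 1 it was 5.84.

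The other leading genes had few UMIs. Nupr1 (chromosome 7, 126623249 to 126630861), a stress-induced nuclear protein gene, had 28, 3 and 12 UMIs in the doublet gate and 0 and 1 in the singlets, with a log2 fold change of 5.80 (SE 1.55; edgeR adjusted p = 0.405). Sfrp1, a secreted Wnt antagonist of stromal cells, had 69, 9 and 8 UMIs against 0 and 8, and its log2 fold change was 3.77 (SE 1.24) with doublet plate 1 and -0.43 without it. Loxl1, an enzyme that cross-links elastic fibres, had 21, 1 and 5 UMIs against 2 and 1. Aebp1, a matrix-associated protein gene, had 17, 0 and 8 against 1 and 1, and the carboxylesterase gene Ces1d had 15, 3 and 5 against 0 and 1. For all of these the mesenchymal-like plate 1 was the highest plate. The processed pseudogene Gm5559 (chromosome 5, 95861714 to 95862715) ran the other way, with 0, 8 and 1 UMIs in the doublet gate and 49 and 2 in the singlets (log2 fold change -3.39, SE 1.11). The 49 UMIs were spread over 35 wells of singlet plate 2, and singlet plate 3, at 22.2 CPM, lay above the highest doublet plate, at 13.1 CPM. Without doublet plate 1 its log2 fold change was -3.30.

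On several plates most UMIs of a secretory-lineage list came from a single well. The Paneth list (Lyz1, Itln1, Mmp7, defensins and others) summed to 337, 99.7 and 2277 CPM on doublet plates 1, 3 and 5 and 62.3 and 22.2 CPM on PDGFRa singlet plates 2 and 3. On doublet plate 5, 1 well supplied 541 of the 596 UMIs (90.8%). Without the richest well of each plate the values were 196, 56.0 and 213 CPM against 42.7 and 11.3 CPM, which do not overlap. They rest on few UMIs, as the whole list had 9 on doublet plate 1 and 18 and 2 on the singlet plates. The enteroendocrine list (hormone and granule genes such as Chga, Cck, Gip and Sct) reached 980 CPM on doublet plate 3 and 0 to 42.0 CPM elsewhere, and 1 well supplied 540 of those 600 UMIs (90.0%). Gip, the gene of the incretin hormone of K cells, accounted for 511 UMIs in a single well of that plate and was at 0 UMIs in the singlets. The goblet list (mucus genes such as Muc2, Tff3, Fcgbp and Zg16) had higher values in the singlets, at 5400 and 9049 CPM against 562, 2376 and 3275 CPM. Here 1 well supplied 799 of 815 UMIs on singlet plate 3 (98.0%), and without the richest well of each plate the values were 2681 and 180.2 CPM against 435, 1191 and 1264 CPM, which overlap. Tuft cell genes ranged from 34.6 to 377 CPM and endothelial genes from 0 to 88.2 CPM.

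**Figure D3:**
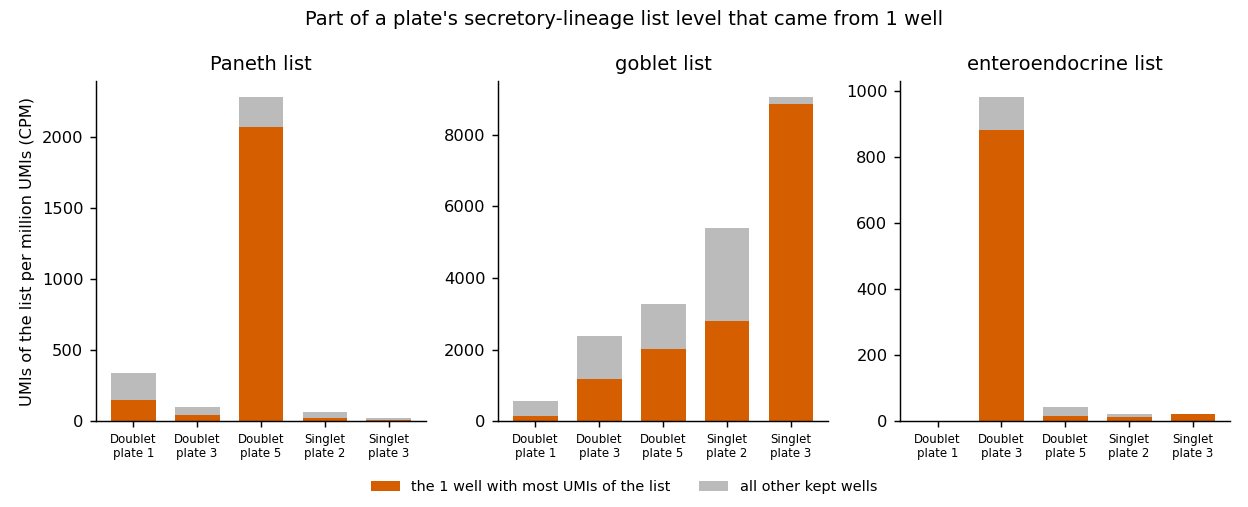
Bars give the CPM of the Paneth, goblet and enteroendocrine lists on each plate, split into the well with most UMIs of the list (orange) and all other kept wells (grey). Each panel has its own vertical scale from 0, and the orange part makes up 90.8% of the Paneth level on doublet plate 5, 98.0% of the goblet level on singlet plate 3 and 90.0% of the enteroendocrine level on doublet plate 3.

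To compare cells of like class, the fit was repeated on epithelial-like wells only. Doublet plates 3 and 5 (276 and 79 wells) were set against singlet plates 2 and 3 (92 and 25 wells), since doublet plate 1 has no such well. Of 5707 genes tested, 0 passed an adjusted p of 0.05 (0%), 152 had an unadjusted p under 0.05 in edgeR (2.66%), and DESeq2 called 0, with 58 under an unadjusted p of 0.05. Plates did not overlap between gates for 31.9% of genes. Epcam stood at 1342 and 1086 CPM in the doublet gate and 878 and 870 CPM in the singlets, without overlap (log2 fold change 0.59, SE 0.49, edgeR unadjusted p = 0.246). Pdgfra had 1 UMI in these 355 doublet-gate wells and 0 in the 117 singlet wells, and 0 of the 12 mesenchymal genes had enough UMIs to be tested.

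The genes with the smallest p-values in epithelial-like wells were of several functions, and most had few UMIs in the singlets. Chd3, a chromatin remodeller of the NuRD complex, was at 127 and 115 CPM on doublet plates 3 and 5 and 19.0 and 27.6 CPM on singlet plates 2 and 3 (log2 fold change 2.58, SE 0.67). Zdhhc9, a protein palmitoyltransferase gene, was at 64.3 and 73.3 CPM against 7.60 and 0 CPM (3.56, SE 0.93). Plcb3, a phospholipase C of receptor signalling, was at 148 and 96.2 CPM against 30.4 and 27.6 CPM (2.16, SE 0.63). For each of these 3 genes the doublet plates lay above both singlet plates, yet the smallest edgeR adjusted p over all genes was 1.00. The small RNA model Gm26035 had 42 and 5 UMIs against 0 and 0, at least 6.62-fold higher with the singlets at the floor of 3 counts over the gate. Gm5559 was lower in the doublet gate here too, at 13.9 and 4.58 CPM against 182 and 27.6 CPM, and so was the goblet gene Tff3, at 1000 and 1246 CPM against 2266 and 6530 CPM (-1.84, SE 0.55). A single well held 464 of the 473 Tff3 UMIs on singlet plate 3 (98.1%), and without the richest well of each plate the goblet list in epithelial-like wells was at 1261 and 1486 CPM against 2915 and 169 CPM, which overlap. The remaining leading genes were Gm24447 and Nlrp4e, with higher values, and Gm10260 and the histone gene Hist1h2ad, with lower values.

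Gene groups of the epithelium were counted the same way, with 0 genes of any group passing the test. Over all 5707 genes, 53.2% had a higher fitted value in the doublet gate and the median log2 fold change was 0.05. All 13 tested immediate early and stress genes had higher values (median 0.63). Among them Junb was at 86.9 and 91.6 CPM on doublet plates 3 and 5 and 34.2 and 41.4 CPM on singlet plates 2 and 3 (1.38, SE 0.64), while Jun (231 and 64.1 CPM against 45.6 and 82.8 CPM; 1.51, SE 0.66) and Fos (410 and 197 CPM against 247 and 276 CPM; 0.35, SE 0.55) overlapped. Of the 13, 3 (23.1%) had plates that did not overlap, against 31.9% of all genes. In the junction and adhesion list, 20 of 24 genes had higher values (median 0.36), with 10 not overlapping (41.7%, against 31.9% of all genes). The desmosome and adherens protein gene Jup was at 67.8 and 45.8 CPM against 22.8 and 27.6 CPM (1.36, SE 0.72), and the claudin gene Cldn4 had 15 and 6 UMIs against 1 and 0 (3.11, SE 1.45). Cldn7, the most abundant claudin of the named genes, overlapped (683 and 541 CPM against 540 and 773 CPM; 0.03, SE 0.51).

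Cell division genes lay on the other side. All 14 tested proliferation genes had lower values in the doublet gate (median -0.86), and so did all 4 tested crypt stem genes (median -0.83). Plates did not overlap for 3 of the 14 (21.4%) and 1 of the 4 (25%), shares below the 31.9% of all genes. The proliferation list summed to 254 and 985 CPM on doublet plates 3 and 5 and 1057 and 1173 CPM on PDGFRa singlet plates 2 and 3, and without the richest well of each plate to 230 and 812 CPM against 984 and 750 CPM, where the gates overlap. A single well supplied 35 of the 85 UMIs of the list on singlet plate 3 (41.2%). Stmn1, a tubulin regulator of dividing cells, was at 10.4 and 64.1 CPM against 103 and 179 CPM (-1.93, SE 0.76). The histone variant gene H2afz was at 66.1 and 96.2 CPM against 175 and 138 CPM (-0.90, SE 0.51), and the helicase gene Mcm6 had 0 and 6 UMIs against 13 and 2 (-1.94, SE 1.20). Ribosomal protein transcripts followed a like order, with 2.41% of UMIs on doublet plate 3 and 6.32% to 7.94% on the other 4 plates over all kept wells, and the nuclear RNA Malat1, named here after its values were seen, stood at 3090 CPM in epithelial-like wells of doublet plate 3 against 701 CPM on doublet plate 5 and 342 and 1091 CPM on the singlet plates. Their part in the result was not tested.

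The number of calls in epithelial-like wells changed when a plate was left out. When doublet plate 5 was left out, so that a lone doublet plate was assumed to vary like the singlet plates, 61 genes passed an edgeR adjusted p of 0.05, 5 higher and 56 lower. The lower genes included 19 ribosomal protein genes or their pseudogenes, 6 histone genes and Stmn1, and the higher ones included Gip, Malat1 and the apolipoprotein gene Apob. When doublet plate 3 was left out, 10 passed, 8 higher and 2 lower, and 5 of the higher ones were defensin genes.

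Genes of absorptive functions were split between both directions. Of 14 genes of lipid absorption, which package dietary fat into chylomicrons, 10 had higher values in the doublet gate (median log2 fold change 0.15). Apob, the structural apolipoprotein of chylomicrons, was at 1320 and 412 CPM on doublet plates 3 and 5 and 278 and 497 CPM on singlet plates 2 and 3 (1.32, SE 0.61), and Apoa4 was at 12707 and 7872 CPM against 8201 and 22820 CPM (-0.46, SE 0.51). Of 15 brush border enzymes 11 had higher values (median 0.13), with sucrase-isomaltase Sis at 1155 and 884 CPM against 1392 and 649 CPM (0.09, SE 0.53). Of 13 nutrient transporters 8 had higher values (median 0.38), among them the glucose transporter gene Slc5a1 at 1118 and 816 CPM against 874 and 621 CPM (0.48, SE 0.51). Of 8 villus tip enterocyte genes 5 had higher values (median 0.25), and the adenosine pathway genes Ada (-0.05, SE 0.58) and Nt5e (-1.24, SE 0.82) did not. Of 8 interferon response genes 7 had higher values (median 0.54). Of 10 antimicrobial genes of the lower villus 9 had lower values (median -0.26), with Reg3b at 7637 and 7459 CPM against 14462 and 5550 CPM. The gates overlapped for each gene of this paragraph that is given per plate. By list, plates did not overlap for 7 of the 13 transporters (53.8%) and 4 of the 10 antimicrobial genes (40%), against 31.9% of all genes. The shares were lower for lipid absorption (21.4%), brush border (13.3%), villus tip (12.5%) and interferon genes (25%).

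**Figure D4:**
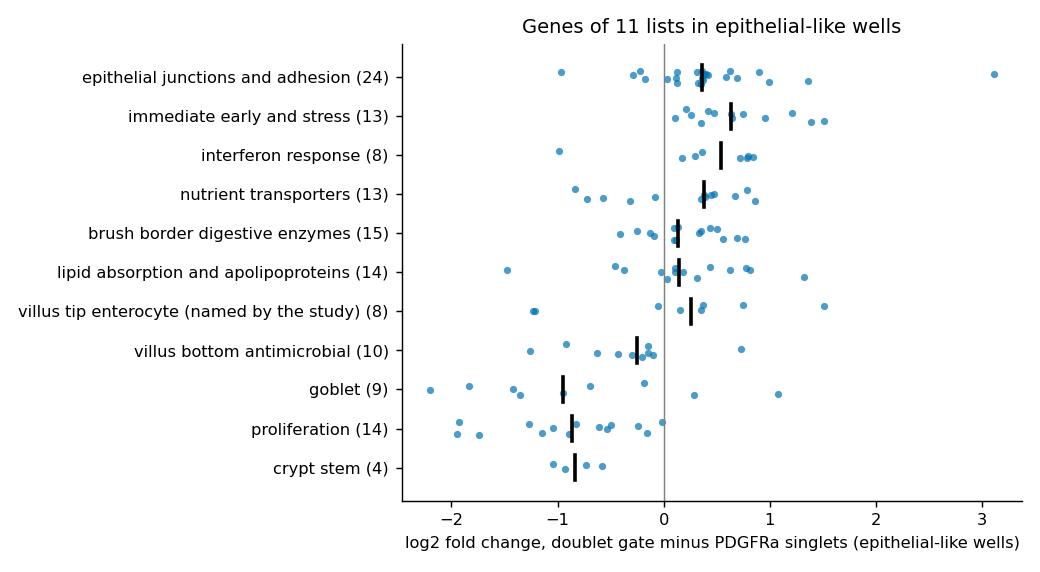
Each point is a gene tested in epithelial-like wells, placed by its log2 fold change (doublet gate minus PDGFRa singlets, 2 plates each) in the row of its list; the number of tested genes is in brackets and the black bar is the list median. Medians of the 11 lists drawn run from 0.63 for immediate early and stress genes to -0.95 for goblet genes, the Paneth list (3 genes tested, median 4.49) is not drawn, and 0 genes passed the adjusted p of 0.05.

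The stromal side was compared in mesenchymal-like wells, with 26, 6 and 26 wells on doublet plates 1, 3 and 5 and 20 and 12 wells on singlet plates 2 and 3. As wells took the class of their cluster, a few bore little of the mesenchymal list. Only 5 of the 6 wells on doublet plate 3 held any of its UMIs, and a well of doublet plate 5 held 2 of them against 9 epithelial UMIs. Of 773 genes tested, 0 passed an edgeR adjusted p of 0.05 (0%), 38 had an unadjusted p under 0.05 (4.92%), and DESeq2 called 0, with 14 under an unadjusted p of 0.05. Plates did not overlap for 21.7% of genes. Without doublet plate 1, 512 genes could be tested and 0 passed, with 14 under an unadjusted p of 0.05. Pdgfra was at 525, 339 and 1061 CPM in the doublet gate and 1126 and 341 CPM in the singlets (log2 fold change 0.05, SE 0.59), and 0.17 without doublet plate 1. The extracellular matrix list summed to 35199, 27448 and 30718 CPM against 36629 and 32693 CPM, and 12 of 22 tested matrix genes had a higher value in the doublet gate. Without plate 1 this was 9 of 20. The proteoglycan gene Dcn was at 15556, 9149 and 7170 CPM against 2904 and 8792 CPM (1.06, SE 0.72), and the fibrillar collagen gene Col3a1 was at 6298, 4236 and 4582 CPM against 5216 and 4866 CPM (0.20, SE 0.57).

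The stromal subtype lists differed from plate to plate. Of 6 tested genes of the villus tip telocyte list all 6 had a higher value in the doublet gate with and without plate 1 (median 0.89 and 0.80), and the list summed to 3336, 4575 and 5388 CPM on doublet plates 1, 3 and 5 and 1956 and 4695 CPM on PDGFRa singlet plates 2 and 3. A single well gave 21 of its 27 UMIs on doublet plate 3 (77.8%), and without the richest well of each plate the sums were 2450, 1424.5 and 3982 CPM against 1601 and 3825 CPM. For the crypt telocyte list, which holds Wnt and BMP modulators such as Sfrp1 and Grem1, it was 5 of 6 both with and without plate 1, with sums of 6560, 6269 and 4879 CPM against 2845 and 4609 CPM. For the myofibroblast list, with contractile genes such as Acta2 and Tagln, it was 1 of 7, and 1 of 6 without plate 1, with sums of 1874, 339 and 6576 CPM against 7942 and 5634 CPM. Over all genes 387 of 773 had higher values (242 of 512 without plate 1). With plate 1, plates did not overlap for 2 of the 6 villus tip telocyte genes (33.3%) and 0 of the 6 crypt telocyte genes. For the myofibroblast list it was 2 of 7 (28.6%), and over all genes 21.7%. These lists were drawn from markers that the study chose in part on these wells, so they are not independent evidence of a direction. On doublet plate 1, 13 of the 26 wells fell in the cluster led by Sfrp1, Mgp and Col1a1, while 18 of 26 on doublet plate 5 and 17 of 20 on singlet plate 2 fell in the cluster led by Ednrb, Adamdec1 and Acta2. Ednrb, the endothelin receptor B gene, had 0, 0 and 37 UMIs in the doublet gate and 37 and 18 in the singlets. When doublet plate 5 was left out, Ednrb, at 0 UMIs on the remaining doublet plates, and Sfrp1 (log2 fold change 3.11, SE 0.67) were the 2 genes that passed an edgeR adjusted p of 0.05. Both lead clusters that these plates fill unequally.

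Single genes at the head of the mesenchymal-like ranking held few UMIs. Sparcl1, a matricellular protein gene, was at 225, 339 and 255 CPM on doublet plates 1, 3 and 5 and 889 and 1366 CPM on singlet plates 2 and 3 (log2 fold change -1.92, SE 0.59; -1.91 without plate 1). Cst3, the secreted protease inhibitor cystatin C, was at 2474, 2372 and 1230 CPM against 1126 and 512 CPM (1.43, SE 0.52; 1.03 without plate 1). Rabac1, a Rab-binding protein gene of vesicle transport, was at 750, 678 and 382 CPM against 59.3 and 171 CPM (2.58, SE 0.92). For these 3 genes the plates of the gates did not overlap. Smarca2, a chromatin remodelling ATPase gene, had 6, 3 and 8 UMIs against 0 and 0, at least 2.89-fold higher with the singlets at the floor of 3 counts over the gate. Pdlim1, a cytoskeletal adaptor gene, had lower values in the doublet gate (74.97, 339 and 552 CPM against 1719 and 683 CPM; -1.80, SE 0.64), and Nupr1, Scn7a, Mir6236, Cebpd and Clec3b had higher ones. Enterocyte transcripts were present too: Apoa1 had 9, 3 and 15 UMIs against 2 and 1, and Apoa4 had 10, 0 and 16 against 0 and 1 (3.42, SE 1.37, edgeR unadjusted p = 0.0202). The lipid absorption list ran from 847 to 2418 CPM against 171 to 593 CPM. That gap rests on few UMIs, since these wells held 5902 UMIs of all genes on doublet plate 3 and 16872 and 11715 on the singlet plates. Other lists overlapped: epithelial (0 to 679 against 85.4 to 237 CPM), brush border (37.5 to 169 against 0 to 296 CPM) and lower villus antimicrobial (297 to 847 against 85.4 to 771 CPM). Epcam had 4 UMIs in a well of doublet plate 1, 3 UMIs in a well of doublet plate 5 and 0 UMIs in the mesenchymal-like singlet wells.

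**Figure D5:**
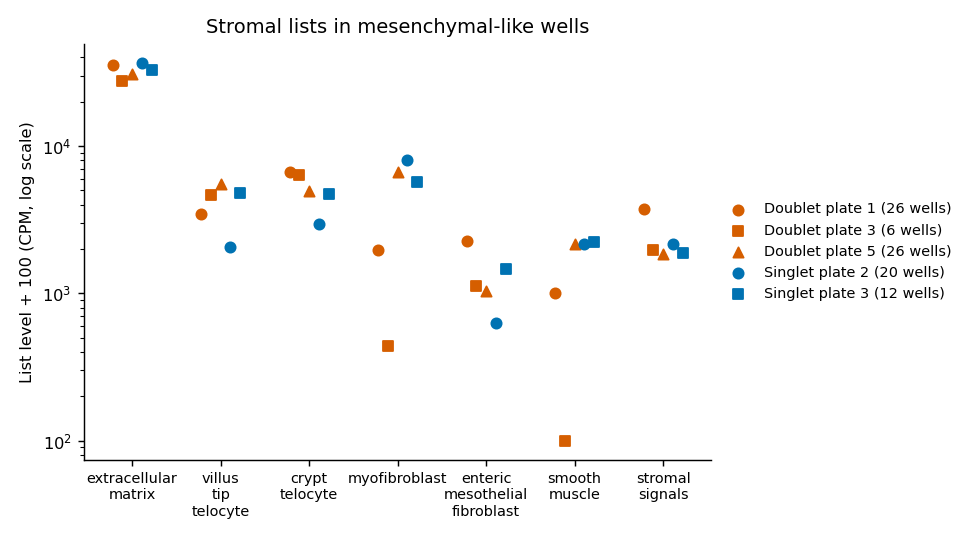
Summed level of 7 stromal lists (CPM + 100, log scale) in the mesenchymal-like wells of each plate, orange for the doublet gate and blue for PDGFRa singlets, with the number of wells in the key. Matrix levels lie within 27448 to 36629 CPM on all 5 plates, while the myofibroblast list runs from 339 to 7942 CPM and doublet plate 5 lies with the singlets.

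A later sorting session used gates of like label on other mice, with doublets from a mouse other than that of the singlets, so that gate and mouse cannot be told apart there. Doublet plates 1 and 2 held 13 and 103 kept wells, none of them mesenchymal-like, and 0 of 116 wells held 2 UMIs of both lists, which allows a share of up to 2.59%. These wells were shallower, at a median of 632.5 UMIs against 1667 in the doublet gate of the main session. Of 3690 genes tested against 4 singlet plates, 0 passed an edgeR adjusted p of 0.05 (0%), with 149 under an unadjusted p of 0.05 (4.04%), and plates did not overlap for 16.3% of genes. DESeq2 called 1, Dpt, with 241 under an unadjusted p of 0.05. Defa17 had 10 and 130 UMIs on the doublet plates and 0, 25, 2 and 13 on the singlet plates (log2 fold change 4.93, SE 1.26, edgeR adjusted p = 0.819). As in the earlier session, 1 well carried most of it, with 128 of the 130 UMIs on doublet plate 2. Singlet plates 3 and 7 were mostly mesenchymal-like and singlet plates 1 and 2 mostly epithelial-like. With only the latter pair against the doublet plates, 34 genes passed an edgeR adjusted p of 0.05, 4 of them defensins with higher values.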

How the data were processed

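Sorted wells were sequenced by MARS-seq. The deposited table holds UMI counts per gene and well, which the authors obtained after demultiplexing (bcl2fastq 2.15.0.4, per the labels' processing notes) on GRCm38. The authors' subtraction of empty-well background was not repeated, since empty wells are not marked. The table holds 12698 wells and 21058 genes, of which 352 wells, on a plate whose name is no sample's title, were left out. No doublet caller was run.

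Wells within the limits (at least 400 and at most 8000 UMIs, 250 genes or more) were clustered over the series (Seurat 5.3.0, 1257 variable genes). Clusters were named from the marker lists. UMIs were summed per plate (at least 5 wells) and tested with edgeR 4.0.16 (R 4.3.3, quasi-likelihood, genes filtered at a minimum count of 5, TMM, Benjamini-Hochberg), with DESeq2 1.42.0 as alternative. The code was tested on simulated data. Single values were compared by exact permutation over plates. Intervals are exact (95%), and the floor is 3 counts. The test was planned for 3 against 4 plates, but 3 against 2 held wells. Named genes were Epcam, Pdgfra and Ptprc, the 10 smallest p-values where none passed, and up to 4 genes per list described. The wells and lists were chosen with earlier results of these data known. The comparison of mesenchymal-like wells was added after seeing the data. Coordinates are from GENCODE vM21 (GRCm38).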

Additional observations from a re-analysis of the deposited data

How the results depend on the processing

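The number of genes past an adjusted p of 0.05 in all kept wells was 0 with edgeR, with DESeq2 and with 5 other settings, but 2 when scaled by library totals only (Defa17 and Defa23), 2 with lower limits of 200 UMIs and 100 genes (the same genes), 2 with all wells and no limits (Gip and mt-Atp6) and 1 with no filter on low counts (mt-Atp6). Leaving out each plate in turn gave 0 to 1, the call being mt-Atp6 without singlet plate 3. In epithelial-like wells no filter gave 5, of which 3 were defensins, and leaving out each plate gave 0 to 61. In mesenchymal-like wells leaving out each plate gave 0 to 2. In the later session DESeq2 gave 1, epithelial-like wells alone 15, and leaving out each plate 0 to 0. No paired analysis was possible because the plates compared in the main session share only the number 3. In the later session, plates 1 and 2 of both gates gave 34 calls without the replicate block and 23 with it, and there a shared number pairs no animal. An epithelial-like fit with no upper UMI limit was not run, since wells above the limit were not clustered.

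With each plate left out in turn, log2 fold changes in all kept wells ranged from -0.48 to 0.62 for Epcam, -0.77 to 4.86 for Gm15284, -0.25 to 1.92 for Pdgfra and -0.43 to 10.06 for Sfrp1, and in mesenchymal-like wells from -0.62 to 1.11 for Pdgfra, which DESeq2 gave as -0.023. Differences between gates ranged from -498.5 to 88 in median UMIs and, in percentage points, from -1.92 to 34.1 for wells kept, -37.3 to 8.09 for epithelial-like wells, -11.8 to 37.2 for mesenchymal-like wells and -0.241 to 2.97 for mitochondrial UMIs. Of the gene values under alternatives, 407 kept their direction and side of the threshold, 34 passed it newly and 9 reversed direction. Of the counts of calls and differences between gates, 75 were the same, meaning a count still at 0 or a difference of unchanged sign. There 14 counts moved from 0 and 5 differences reversed. In mesenchymal-like wells, with 6 to 26 wells per plate, 773 genes could be tested.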

Other observations

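Mitochondrially encoded mt-Atp6 was at 349 UMIs on singlet plate 2, in 84 of 115 wells, with 19 UMIs in the richest of them. It had 0 UMIs on singlet plate 3, 0, 2 and 0 UMIs on doublet plates 1, 3 and 5 and 0 UMIs on the NT5E doublet plate of the same session. The gene was not tested with the filter used in the report.

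The NT5E doublet gate of the same session held 94 epithelial-like, 27 mesenchymal-like and 5 unnamed wells among 126. Epcam and Pdgfra UMIs met in 3 of its wells, against 1 of 441 in the EPCAM PDGFRa doublet gate and 0 of 153 in the PDGFRa singlets. Of its epithelial-like wells 17.0% held a mesenchymal-list UMI, at a median of 3415 UMIs per well. Defa17 had 5 UMIs there and Gip 0.

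Of 72 wells sorted as CD45 singlets in the later session, 71 were epithelial-like and 0 held 2 UMIs of both lists. Below the limit of 400 UMIs, 633 doublet-gate wells and 577 singlet wells remained in the table, of which 2 and 0 held 2 UMIs of both lists. Wells with fewer than 2 UMIs of either list numbered 15 among the 441 kept doublet-gate wells and 0 among the 153 singlet wells.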
